A study of Mus musculus with 48 samples.

Results

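The 35 genes described here encode the machinery of DNA synthesis and of entry into S phase, and they were taken from a named list of symbols. All 35 matched an Ensembl identifier in the count table of 49315 genes, and all 35 were among the 13986 genes with enough counts to be tested. They were grouped by role: cyclin E and E2F regulators, origin and helicase factors, polymerases and primase, the sliding clamp with its loaders and RPA, flap and nick processing, nucleotide supply with uracil removal, chromatin assembly with DNA methylation, and the replication checkpoint. The list was drawn up with earlier results of these data known.

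The libraries come from mouse bone marrow-derived macrophages, which are grown from marrow in medium with the growth factor M-CSF, here for 7 days, and then rested overnight without it. The 4 genotypes concern Lyn, a Src-family tyrosine kinase of myeloid cells that is spliced into the isoforms LynA and LynB: wild type (WT), mice lacking LynA (LynAKO), mice lacking LynB (LynBKO) and mice lacking both (LynKO). Cells of each genotype were kept in M-CSF-free medium alone (NT), or were given a ligand for 2 h, which was lipopolysaccharide at 2 ng/mL (LPS, for Toll-like receptor 4) or resiquimod at 20 ng/mL (R848, which activates Toll-like receptor 7 of the mouse). Each of the 12 groups holds 4 libraries, from 4 mice (2 male and 2 female) whose cells were differentiated and treated separately according to the series' design text, and the age of the mice is not given in the sources used here. The comparisons ask whether these genes differed between genotypes, what 2 h of each ligand did to them, and whether a LynKO excess persisted with ligand.

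Replication starts at origins that the origin recognition complex marks and at which the MCM helicase is loaded. Cyclin E with its kinase partner and the E2F transcription factors then drive S-phase entry, CDC45 and GINS turn the loaded MCM ring into an active helicase, and polymerases held by the PCNA clamp copy the strands. Ribonucleotide reductase, thymidylate synthase and thymidine kinase supply the deoxynucleotides, and CAF-1, UHRF1 and DNMT1 rebuild nucleosomes and methylation marks behind the fork. Macrophages grown from marrow divide in M-CSF, and activation through Toll-like receptors is known to slow their proliferation. In bulk RNA, a smaller share of cells in S phase and less of a transcript in each cell cannot be told apart.

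Many S-phase genes carry E2F sites before their start, and E2F matches were therefore searched in the 250 bases before each RefSeq transcript start (GRCm38.p6). The letters searched were TTTCCCGC, TTTCGCGC, TTTGCCGC and TTTGGCGC on both strands. Of the 35 genes, 29 had a promoter in the table, and 6 of these (20.7%) held a match, against 3.89% of 10020 tested genes and 2.16% of all 27025 genes with a promoter. The stretch around each match is given here because E2F matches were more frequent in these promoters than in others, with the E2F match in capitals. Where the stretch overlaps an annotated exon it is cut to at most 30 bases. The matches of Uhrf1 and Dnmt1 lie before a start inside the gene. The windows before their starts further upstream held no E2F match.
Uhrf1, chr17:56304117-56304146, plus strand: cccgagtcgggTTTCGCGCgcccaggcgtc
Hells, chr19:38930917-38930946, plus strand: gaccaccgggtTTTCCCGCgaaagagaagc
Dnmt1, chr9:20952824-20952853, minus strand: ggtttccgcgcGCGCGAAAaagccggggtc
Pola1, chrX:93632275-93632304, minus strand: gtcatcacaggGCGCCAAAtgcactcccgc
Orc1, chr4:108579416-108579445, plus strand: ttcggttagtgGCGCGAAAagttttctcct
Rfc3, chr5:151651209-151651229, minus strand: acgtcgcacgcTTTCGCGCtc

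The CCAAT box (CCAAT, or ATTGG on the other strand), which NF-Y binds, was found in 16 of the 29 members (55.2%), against 40.4% of tested genes and 37.5% of all genes. The CHR element of cell cycle promoters (TTTGAA or TTCGAA, both strands) was found in 5 members (17.2%), against 14.8% and 19.6%. The median GC content of the windows was 60.4% in members and 59.6% in tested genes. The genes with the widest LynKO difference without ligand (Rrm2), the highest level (Pcna) and a change in each LynKO against WT and each ligand against NT comparison (Clspn) had no E2F match in these letters and are shown with their CCAAT match nearest the start in capitals. A match is a description of letters and not of a bound site.
Rrm2, chr12:24708192-24708221, plus strand: ggtcagcggcgtCCAATgggaggcgaggcc
Pcna, chr2:132253250-132253279, minus strand: accacgggtacgATTGGtccttgaggagag
Clspn, chr4:126556947-126556976, plus strand: accctccctcggATTGGtgcaaaccctcaa

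Library totals ranged from 14974764 to 23321447 counts. Levels are CPM, counts scaled to the size of the library with TMM factors, and a gene is said to have passed, risen or fallen where the adjusted p of edgeR's quasi-likelihood test, over all tested genes, was under 0.05. Lyn itself averaged 177, 341 and 371 CPM in WT (NT, LPS and R848), 118, 219 and 244 in LynAKO, 125, 218 and 253 in LynBKO, and 67.6, 90.6 and 104 in LynKO, so LynKO cells kept reads at the locus. Macrophage markers were present in all libraries. The untreated libraries LynKO 4 and LynBKO 4, labelled female, held both Xist (232 and 121 CPM) and Y-linked transcripts (70.8 and 133 CPM), and the counts of members that rest on them are also given without them, with the calls that were lost. The sex labelled for untreated LynBKO 2 and 3 is the reverse of that labelled for their ligand libraries. Their Xist and Y-linked transcripts follow these labels, so LynBKO 2 and 3 are not the same animals across treatments. A LynBKO mouse left out below therefore means the libraries of that replicate number.

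Without ligand, DNA synthesis genes were higher in LynKO than in WT macrophages. Of the 35, 21 rose and none fell, against 5.43% of all tested genes that rose and 4.47% that fell. The log2 fold change was at or above 0 for all 35, ran from 0.00 to 1.81 and had a median of 0.70, where the median of all tested genes was 0.00. In 6 genes that did not pass (E2f2, Orc6, Pole2, Rfc4, Rpa2 and Slbp), the value went below 0 under at least 1 other setting, to -0.11 at the lowest. For 21 genes every LynKO library lay above every WT library, which was so for 7.37% of tested genes. Without the libraries LynKO 4 and LynBKO 4, 15 genes passed, and Ccne2, Pola1, Prim1, Dscc1, Chaf1b and Hells did not. The values then ran from -0.11 to 1.77 with a median of 0.56, 33 of 35 were above 0, and no value moved by more than 0.22. In 21 genes the groups did not overlap, but with 1 LynKO library fewer, groups separate more easily. The shares of all tested genes that passed or did not overlap were not counted at this setting.

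With LPS the LynKO excess remained, and 19 genes were higher in LynKO than in WT and none lower, against 4.43% and 4.06% of tested genes. The median log2 fold change was 0.79, the range -0.07 to 1.98, and 33 of 35 values were above 0. In 17 genes the groups did not overlap, against 6.94% of tested genes. With R848, 15 genes were higher and none lower (3.19% and 2.74% of tested genes), all 35 values were above 0 with a median of 0.70, and 19 genes did not overlap (6.49%). The R848 values of Orc1, Orc6 and Slbp went below 0 under at least 1 other setting, to -0.04 at the lowest, Slbp also with RLE size factors, and the LPS value of Slbp went above 0. The median over all tested genes was 0.02 with LPS and 0.01 with R848. The LPS count was 11 without WT mouse 1 and 12 without LynKO mouse 4, and the R848 count was 9 without WT mouse 3. WT and LynKO libraries of the same number deviated together with LPS (r 0.107 to 0.153) and with R848 (0.15 to 0.313), and with the replicate number as a block Chaf1a also passed with LPS (0.78 ± 0.19, edgeR adjusted p = 0.0128), and Fen1, Dut and Hells with R848 (0.64 ± 0.20, 0.90 ± 0.29 and 1.15 ± 0.35, edgeR adjusted p = 0.0448, 0.048 and 0.0361).

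The genes that passed were largely shared between treatments, whose libraries come from the same mice. How far the calls of all tested genes were shared between treatments was not computed, so this sharing cannot be called particular to the members. Of the 21 genes without ligand and the 19 with LPS, 16 were the same (76.2% and 84.2%). Between no ligand and R848, 14 were shared (66.7% and 93.3%), and between the ligands 11 (57.9% and 73.3%). In all 3 treatments 11 genes were higher in LynKO: Rrm1, Rrm2, Tyms, Tk1, Pola1, Pole, Prim1, Pcna, Lig1, Uhrf1 and Clspn. At least 1 treatment showed a rise for 25 genes, and 10 passed in none: E2f1, E2f2, Cdc45, Orc1, Orc6, Pole2, Rfc3, Rpa2, Slbp and Ung. Without LynKO 4 and LynBKO 4, 13 genes were shared between no ligand and LPS and 11 between no ligand and R848, Pola1 and Prim1 left the genes higher in all 3, and Dscc1 and Chaf1b joined those that passed in none.

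The mean log2 CPM over the 35 genes describes each library in 1 number, and is given without a test. Without ligand it was 2.5, 2.83, 2.57 and 2.58 in WT, and 3.35, 3.18, 3.21 and 3.44 in LynKO. The LynKO mean was 3.29, and 3.25 without LynKO 4. The score was 1.39 to 2.00 in WT and 2.41 to 2.71 in LynKO with LPS, and 1.78 to 2.27 and 2.59 to 2.91 with R848. LynAKO and LynBKO libraries lay between 2.64 and 3.03 without ligand, between 1.91 and 2.24 with LPS, and between 1.92 and 2.53 with R848. Within each treatment every LynKO library stood above every library of the other 3 genotypes. LynKO libraries with LPS overlapped untreated WT libraries, and in LynKO with LPS 17 genes had a mean above that of untreated WT and 18 a mean below it, where WT with LPS had 4 above and 31 below. With R848 these counts were 23 and 12 in LynKO, and 6 and 29 in WT. The same counts were not made over all tested genes, so they have no background beside them.

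**Figure D1:**
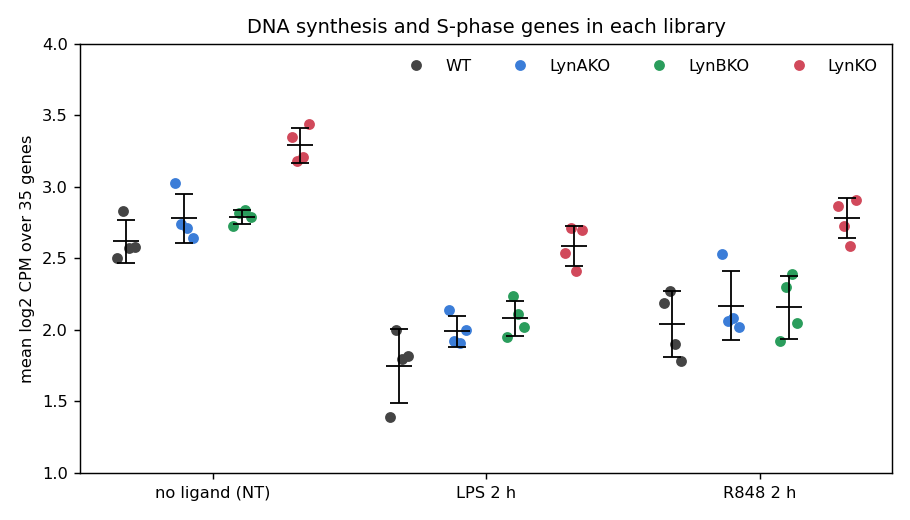
Mean log2 CPM over the 35 DNA synthesis genes (vertical axis) in each of the 48 libraries, by treatment and genotype. Points are libraries, and bars are the mean and SD of 4. LynKO lies highest within each treatment (means 3.29, 2.59 and 2.78), and both ligand groups lie below the untreated group of the same genotype.

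Genes of nucleotide supply and uracil removal were higher in LynKO for 5 of 6 members without ligand, 5 with LPS and 4 with R848. Rrm2, the regulated subunit of ribonucleotide reductase (ENSMUSG00000020649, chr12:24708241-24714146), stood at 2.51, 8.23, 3.97 and 3.62 CPM in untreated WT mice 1 to 4, and at 17.9, 14.9, 13.9 and 17.3 CPM in LynKO. With LPS it was 0.860, 5.01, 1.07 and 2.64 in WT and 9.67, 8.93, 7.04 and 9.94 in LynKO. With R848 it was 3.73, 4.97, 2.55 and 1.95 in WT and 11.4, 8.92, 8.85 and 10.8 in LynKO. The genotypes did not overlap in any treatment, and WT mouse 2 was the highest WT mouse each time. The LynKO against WT log2 fold change of Rrm2 was 1.81 ± 0.25 (SE), 1.84 ± 0.34 and 1.58 ± 0.32 for NT, LPS and R848 (edgeR adjusted p = 8.38e-05, 0.00217 and 0.00649). LynAKO (5.21 to 9.78 CPM) and LynBKO (6.44 to 8.35 CPM) overlapped WT without ligand.

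Tk1, the S-phase thymidine kinase of the salvage pathway, was 5.58, 10.0, 8.02 and 7.75 CPM in untreated WT and 17.1, 15, 15.8 and 20.4 in LynKO. With LPS the values were 6.41, 9.66, 8.01 and 10.8 in WT and 12.6, 14.9, 14.4 and 18.5 in LynKO. With R848 they were 13.4, 16.2, 12.7 and 14.6 in WT and 25.9, 23.2, 27.1 and 30.8 in LynKO. LynKO lay above WT without overlap in each treatment, and Tk1 was the only member that rose with R848, in WT by 0.89 ± 0.18 on the log2 scale (edgeR adjusted p = 0.000328). The same rise was 0.71 in LynAKO, 0.56 in LynBKO and 0.63 in LynKO. LynKO against WT gave log2 fold changes of 1.13 ± 0.15, 0.81 ± 0.16 and 0.91 ± 0.11 (edgeR adjusted p = 4.51e-05, 0.00408 and 0.000158 for NT, LPS and R848). Tk1 is among 14 members, with Pole, Lig1 and Rfc4, in which another gene overlaps an exon. Their counts are uncertain because the strand setting of the counting is not given.

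Rrm1, the large reductase subunit, was higher in LynKO by 0.77 ± 0.13, 0.77 ± 0.11 and 0.74 ± 0.13 in the same order. Tyms, thymidylate synthase, was higher by 0.98 ± 0.22, 0.87 ± 0.24 and 0.94 ± 0.25. Dut, which removes dUTP before polymerases can use it, was 2.09, 3.08, 2.06 and 2.38 CPM in untreated WT and 3.71, 4.44, 4.44 and 6.67 in LynKO. With LPS Dut was 1.09, 1.81, 1.57 and 1.28 in WT and 2.27, 3.37, 3.31 and 5.68 in LynKO, and with R848 2.08, 2.03, 2.06 and 2.02 in WT and 3.71, 3.77, 2.54 and 5.44 in LynKO. Dut groups did not overlap in any treatment, LynKO mouse 4 was the highest each time, and the gene passed without ligand (1.01 ± 0.21) and with LPS (1.34 ± 0.31), while with R848 the edgeR adjusted p was 0.0893 (0.048 with the block). Ung, a uracil-DNA glycosylase, had log2 fold changes of 1.2 ± 0.45, 1.37 ± 0.87 and 0.91 ± 0.74, with 0 to 58 counts in a WT or LynKO library, and passed in none.

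Polymerase and primase genes were higher in LynKO for 3 of 4 members in each treatment. Pole, the catalytic subunit of the leading-strand polymerase, was 2.47, 3.33, 1.91 and 2.19 CPM in untreated WT and 6.94, 4.49, 6.92 and 7.34 in LynKO, and with LPS 0.313, 2.43, 0.644 and 0.642 in WT and 4.18, 5.94, 3.45 and 3.23 in LynKO. Its groups did not overlap, and its log2 fold changes were 1.39 ± 0.22, 1.98 ± 0.41 and 1.61 ± 0.36, although a WT library with LPS held as few as 4 counts. Pola1, the catalytic subunit of polymerase alpha, was higher by 0.77 ± 0.20, 0.85 ± 0.26 and 0.86 ± 0.21. Prim1, the primase that makes RNA primers, was higher by 0.70 ± 0.20, 1.15 ± 0.29 and 1.03 ± 0.28. Pole2, the second subunit of polymerase epsilon, did not pass (0.01 ± 0.15, 0.77 ± 0.41 and 0.53 ± 0.32).

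Pcna, the sliding clamp (ENSMUSG00000027342, chr2:132249162-132253314), had the highest level of the 35 per kilobase of exon in each of the 12 groups. It was 156, 186, 179 and 144 CPM in untreated WT and 276, 237, 305 and 337 in LynKO. With LPS it was 204, 241, 225 and 208 in WT and 327, 285, 323 and 351 in LynKO, and with R848 193, 185, 152 and 143 in WT and 263, 219, 258 and 357 in LynKO. LynKO lay above WT without overlap each time, by 0.81 ± 0.13, 0.57 ± 0.09 and 0.70 ± 0.14 on the log2 scale (edgeR adjusted p = 0.000252, 0.000352 and 0.00488). The annotation holds a pair of pseudogenes named after Pcna, and how the deposited counts split reads among them is not given in the sources used here. Of the other genes of this role, Rfc4, a clamp loader subunit, passed with LPS (1.13 ± 0.32), Rfc5, another, with R848 (0.56 ± 0.13), and Dscc1, of the alternative loader for cohesion, without ligand (1.43 ± 0.44) at 4 to 31 counts a library. Rfc3 and Rpa2, which encodes a subunit of the single-strand binding complex, passed in none, with values from -0.07 to 0.25.

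Nick and flap processing passed for all 3 members with LPS, for Lig1 and Exo1 without ligand and for Lig1 alone with R848. Lig1, the ligase that seals Okazaki fragments, was higher by 0.75 ± 0.08, 0.68 ± 0.13 and 0.48 ± 0.12. Exo1, a 5′ exonuclease of mismatch repair, was higher by 1.16 ± 0.30 without ligand and 1.76 ± 0.50 with LPS, where 2 to 24 counts stood in a WT or LynKO library. Fen1, the flap endonuclease, rose with LPS by 0.79 ± 0.20.

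The chromatin genes rose for 5 of 6 without ligand, 3 with LPS and 2 with R848. Uhrf1, which brings DNMT1 to hemimethylated DNA (ENSMUSG00000001228, chr17:56303321-56323486), was 2.28, 5.43, 3.63 and 1.83 CPM in untreated WT and 10.2, 8.12, 9.02 and 12.5 in LynKO. With LPS it was 2.42, 4.81, 2.29 and 2.00 in WT and 6.62, 9.35, 6.49 and 11.2 in LynKO, and with R848 3.43, 4.67, 1.77 and 1.81 in WT and 9.67, 8.40, 6.69 and 10.6 in LynKO. No LynKO library fell into the WT range, and the log2 fold changes were 1.61 ± 0.28, 1.54 ± 0.27 and 1.58 ± 0.29 (edgeR adjusted p = 0.000671, 0.00133 and 0.00386). Dnmt1, the maintenance methyltransferase, was 70.6, 82.8, 97.2 and 83.0 CPM in untreated WT and 113, 105, 111 and 101 in LynKO, and 26.3, 26.3, 21.9 and 26.3 against 28.4, 42.7, 37.3 and 41.1 with LPS. Its LynKO rise was 0.38 ± 0.09 without ligand and 0.59 ± 0.16 with LPS, and with R848 (53.2, 40.0, 30.0 and 26.8 against 59.8, 51.0, 45.3 and 36.2) the groups overlapped, LynKO was the higher in each of the 4 same-numbered pairs, and the edgeR adjusted p was 0.317, or 0.0558 with the block.

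Hells, a chromatin remodeller that assists DNA methylation, rose without ligand (0.61 ± 0.18) and with LPS (1.31 ± 0.23). Chaf1a, the large CAF-1 subunit, rose without ligand (0.57 ± 0.13) and with R848 (1.10 ± 0.22), and Chaf1b, its middle subunit, without ligand (0.54 ± 0.16). Slbp, which binds the stem-loop of histone mRNA, was 33.9, 37.2, 30.3 and 34.3 CPM in untreated WT and 36.1, 33.5, 34.2 and 35.5 in LynKO. With LPS Slbp was 26.7, 29.0, 32.4 and 24.9 against 27.2, 25.8, 28.1 and 28.4, and with R848 31.5, 34.5, 38.1 and 35.9 against 32.3, 34.6, 34.9 and 38.7. The genotypes overlapped in every treatment, with differences of 0.05 ± 0.08, -0.03 ± 0.12 and 0.01 ± 0.09.

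Clspn, the adaptor through which ATR activates CHK1 at stalled forks, was 2.51, 5.11, 4.01 and 3.11 CPM in untreated WT and 10.5, 7.88, 9.65 and 10.6 in LynKO. With LPS it was 0.782, 1.09, 1.93 and 1.43 in WT and 4.00, 4.96, 2.90 and 3.61 in LynKO, and with R848 2.33, 2.70, 1.35 and 1.45 against 5.56, 5.08, 4.39 and 3.00. The LynKO libraries stayed above the WT libraries at each of these levels, by 1.40 ± 0.20, 1.59 ± 0.32 and 1.19 ± 0.28 (edgeR adjusted p = 0.000126, 0.00368 and 0.0185).

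Of the 4 regulators at the start of S phase, 1 was higher in LynKO in each treatment, and neither E2F gene passed. E2f1, an activating E2F, was 25.7, 27.3, 25.4 and 25.1 CPM in untreated WT and 31.8, 27.3, 30.8 and 31.3 in LynKO. The E2f1 groups nearly touched at 27.3, and its difference of 0.24 ± 0.08 had an edgeR adjusted p of 0.069. E2f2, another activating E2F, was 51.8, 52.1, 58.2 and 58.6 in WT and 54.9, 58.8, 56.7 and 49.2 in LynKO, fully overlapping, with a difference of 0.01 ± 0.09.

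Ccne1 (cyclin E1) was 1.07, 3.04, 1.95 and 2.45 CPM in untreated WT and 3.56, 3.82, 3.32 and 4.44 in LynKO, which did not overlap, but the edgeR adjusted p was 0.0646. With LPS Ccne1 was 1.49, 2.89, 1.5 and 1.43 in WT and 6.33, 2.67, 2.97 and 4.07 in LynKO, which overlapped at WT mouse 2 and passed (1.11 ± 0.33). With R848 it was 1.90, 1.78, 0.780 and 1.01 against 2.26, 2.15, 1.73 and 2.56. Ccne2 (cyclin E2) was 2.88, 2.07, 1.60 and 2.52 in untreated WT and 5.99, 2.60, 3.22 and 6.47 in LynKO, and rose by 1.02 ± 0.28 despite 1 overlapping pair. With LPS Ccne2 was 0.469, 2.53, 2.93 and 2.07 against 3.70, 4.49, 3.18 and 2.84, and with R848 1.10, 1.47, 1.63 and 3.11 against 4.00, 4.43, 3.78 and 4.19. It did not pass with LPS (edgeR adjusted p = 0.139) and rose by 1.17 ± 0.32 with R848.

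Among origin and helicase factors the GINS subunits carried the LynKO rise. Gins1 rose without ligand (0.79 ± 0.19) and with LPS (1.03 ± 0.30), and Gins2 without ligand (0.54 ± 0.14) and with R848 (0.84 ± 0.19). Cdc45, their partner in the active helicase, was 6.23, 3.77, 2.94 and 2.56 CPM in untreated WT and 5.85, 3.97, 3.85 and 5.84 in LynKO. With LPS Cdc45 was 1.02, 1.45, 2.00 and 1.57 against 2.51, 2.62, 2.69 and 2.32, and with R848 2.57, 2.58, 1.91 and 3.25 against 3.42, 2.02, 3.03 and 3.57. The LPS groups did not overlap, yet the difference of 0.76 ± 0.31 had an edgeR adjusted p of 0.141. Orc1 and Orc6, subunits of the origin recognition complex, had values from 0.00 to 0.76 and passed in none.

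**Figure D2:**
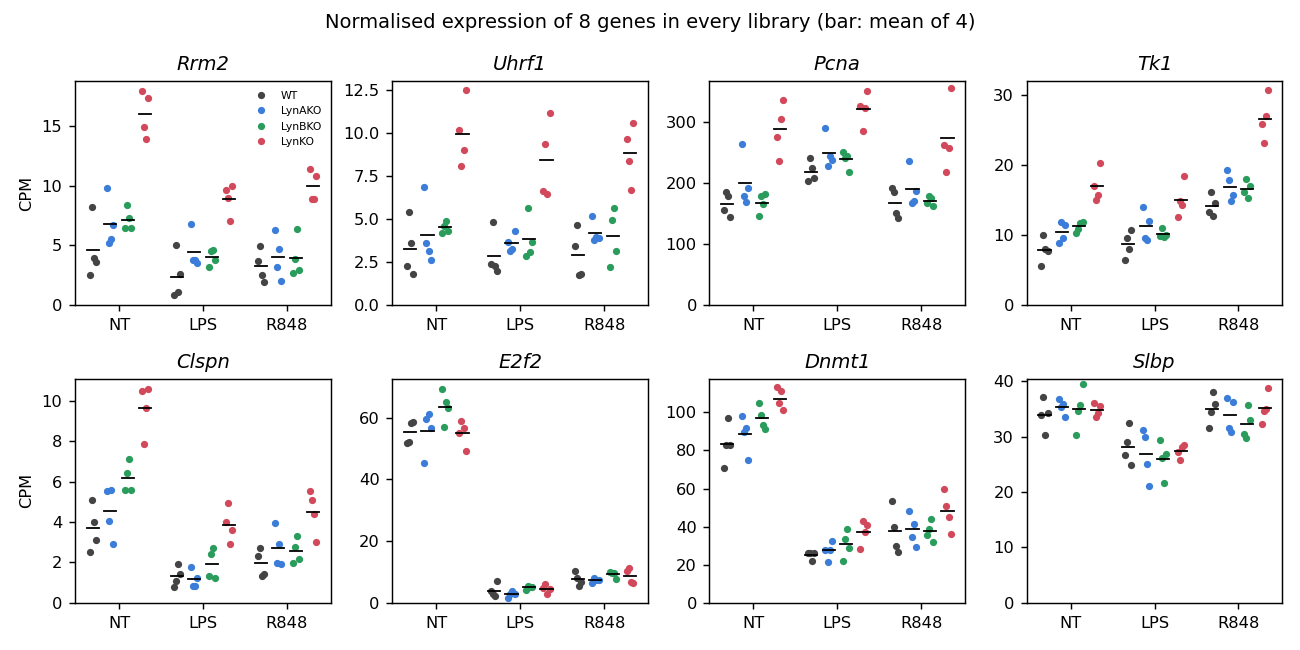
CPM (vertical axis, from 0) of 8 genes in each of the 48 libraries, by treatment and genotype, with a bar at the mean of 4. Rrm2, Uhrf1, Pcna, Tk1 and Clspn are highest in LynKO within each treatment. E2f2 and Dnmt1 fall with ligand in every genotype. Slbp differs little between genotypes and is lower with LPS.

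The single-isoform knockouts did not show these differences at the threshold. LynAKO against WT gave no member past the edgeR threshold in any treatment, with 4, 5 and 1 members at an unadjusted p under 0.05 (NT, LPS and R848) and 0 by DESeq2 in each. Of all tested genes 0.0286%, 0.0215% and 0.00715% passed. LynBKO against WT also gave 0 by edgeR, with 7, 5 and 0 at an unadjusted p under 0.05 and 2, 0 and 0 by DESeq2. By edgeR 0.0644%, 0.0358% and 0% of tested genes passed. Without the untreated libraries LynKO 4 and LynBKO 4, neither single knockout had a member past the edgeR threshold without ligand. The median log2 fold changes over members were 0.10, 0.17 and 0.17 for LynAKO and 0.09, 0.25 and 0.15 for LynBKO, between -0.01 and 0.01 over all tested genes. Values were above 0 for 27, 27 and 27 of 35 members in LynAKO, and below 0 for 8, 8 and 8. In LynBKO 24, 32 and 22 were above 0 and 11, 3 and 13 below.

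LynKO was also compared with each single knockout directly, and all members that passed were higher in LynKO. Against LynAKO, 12 passed without ligand (2.04% of tested genes were higher), 7 with LPS (0.572%) and 2 with R848 (0.572%). Against LynBKO, 11 passed without ligand (1.93%), 3 with LPS (0.3%) and 8 with R848 (0.851%). Rrm1 passed in each of them, and the comparisons share the LynKO libraries. With the replicate number as a block, the R848 counts were 6 (with Pole, Pcna, Rrm2 and Uhrf1 added) and 14 (with E2f1, Gins2, Rfc5, Lig1, Tyms and Chaf1a added). Without the libraries LynKO 4 and LynBKO 4 the untreated counts were 7 and 2. The shares of all tested genes were not counted with the block or without these libraries. Without ligand Rrm2 was higher than in LynAKO 2.37-fold and than in LynBKO 2.25-fold (edgeR adjusted p = 0.00624 and 0.0102), and without LynKO 4 and LynBKO 4 the latter did not pass (0.112). These counts were less steady than those against WT. Without ligand they were 7 against LynAKO without LynKO mouse 1, and against LynBKO 5 without LynKO mouse 4, 7 without LynKO mouse 1, and 6 and 7 without LynBKO mouse 1 and 3. With LPS, 1, 2 and 4 passed against LynAKO without its mouse 2, 3 and 4, and 4, 2, 4 and 3 without LynKO mouse 1, 2, 3 and 4. Against LynBKO with LPS, 0, 1 and 0 passed without its mouse 1, 2 and 4, and 1, 1 and 0 without LynKO mouse 2, 3 and 4. With R848 the LynAKO count was 6 without its mouse 1 and 1 without its mouse 2 or 4 or LynKO mouse 1 or 2. The LynBKO count with R848 was 1, 4 and 1 without its mouse 1, 2 and 4, 2, 5, 4 and 3 without LynKO mouse 1, 2, 3 and 4, and 3 and 4 without LynAKO mouse 2 and 3, which share the estimate of spread.

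LPS lowered many of these genes within 2 h. In WT 22 fell and 1 rose, against 30% of all tested genes that fell and 31.5% that rose. In LynAKO 19 fell and none rose (30.3% and 30.4% of tested genes), in LynBKO 21 fell and 2 rose (33.4% and 33.9%), and in LynKO 23 fell and none rose (30.7% and 31%). Libraries of 1 mouse number deviated together in WT, LynAKO and LynKO. With that number as a block 24 fell and 1 rose in WT, 23 and 1 in LynAKO, and 24 and 1 in LynKO, where the 1 was Pcna each time. The shares of all tested genes that fell or rose with the block were not counted. The median log2 fold changes were -0.71, -0.54, -0.55 and -0.60 in WT, LynAKO, LynBKO and LynKO, where the medians over all genes were -0.03, -0.04, -0.03 and -0.03. R848 lowered 15 in WT and 17 in each knockout, with Tk1 alone rising in each genotype, against 26.7%, 26.9%, 32.2% and 27% of tested genes that fell and 30%, 29%, 31.3% and 28.4% that rose. Medians with R848 were -0.49, -0.47, -0.53 and -0.41. Without LynKO 4 and LynBKO 4, LPS gave 20 calls in LynKO and 21 in LynBKO, and R848 17 and 16. The calls lost were Prim1, Pole and Rfc3 with LPS and Prim1 with R848 in LynKO, and Pola1, Prim1 and Ung with LPS and Dut and Ung with R848 in LynBKO, where Orc6 came to pass with LPS. LPS and R848 comparisons of a genotype share its untreated libraries.

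With LPS, 16 genes fell in all 4 genotypes: E2f1, E2f2, Cdc45, Gins1, Pole2, Prim1, Rfc4, Rpa2, Fen1, Lig1, Ung, Chaf1a, Slbp, Dnmt1, Hells and Clspn. Prim1 and Ung left this set without the libraries LynKO 4 and LynBKO 4. With R848 the corresponding 9 were E2f1, E2f2, Gins1, Pole2, Rfc4, Fen1, Chaf1a, Dnmt1 and Clspn. LPS lowered 9 in no genotype, namely Ccne1, Ccne2, Orc1, Pcna, Dscc1, Tk1, Tyms, Chaf1b and Uhrf1. R848 lowered 13 in no genotype, among them Pcna, Tk1, Tyms, Uhrf1 and Rrm1. With the block, however, Rrm1 fell with R848 by 0.24 in LynAKO and by 0.19 in LynKO on the log2 scale (edgeR adjusted p = 0.0283 and 0.0233). How many of all tested genes fell in all 4 genotypes, or in none, was not counted, so these sets have no background beside them.

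E2f2 fell most. From 51.8 to 58.6 CPM in untreated WT it went to 3.91, 2.84, 2.22 and 6.99 with LPS and to 10.2, 8.05, 5.32 and 6.87 with R848. In LynKO it went from 49.2 to 58.8 to 4.77, 6.03, 3.04 and 4.45 with LPS and to 10.4, 11.3, 6.81 and 6.32 with R848. No ligand library came near an untreated one. The log2 fold change in WT was -3.79 ± 0.24 for LPS and -2.82 ± 0.22 for R848 (edgeR adjusted p = 1.77e-10 and 5.37e-09), and in LynKO -3.57 ± 0.19 and -2.67 ± 0.18. The windows before both RefSeq starts of E2f2 are shown because no other member moved as far with ligand; neither held the E2F letters, and the CCAAT matches are in capitals.
E2f2, chr4:136172174-136172273, plus strand: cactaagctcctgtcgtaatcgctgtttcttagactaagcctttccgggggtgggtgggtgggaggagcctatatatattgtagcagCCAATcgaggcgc
E2f2, chr4:136180682-136180781, plus strand: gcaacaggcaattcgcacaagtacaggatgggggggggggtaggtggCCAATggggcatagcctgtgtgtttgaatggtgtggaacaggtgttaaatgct

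E2f1 fell less, to 19.5, 14.2, 15.1 and 17.4 CPM with LPS and to 17.4, 21.2, 16.5 and 16.9 with R848 in WT, and to 15.4, 21, 20.4 and 23 and 22.2, 19.9, 23.2 and 22.1 in LynKO. All of these lay below every untreated library of the same genotype, and the WT changes were -0.64 ± 0.11 and -0.49 ± 0.11. Pole2 fell by 2.55 with LPS and 1.99 with R848 on the log2 scale in WT. Dnmt1 went from a mean of 83.4 to 25.2 CPM with LPS and 37.5 with R848 in WT (-1.71 ± 0.17 and -1.12 ± 0.16), and from 107 to 37.4 and 48.1 in LynKO (-1.53 ± 0.14 and -1.17 ± 0.14). Cdc45 fell by 1.33 with LPS in WT, and its -0.55 ± 0.29 with R848 did not pass. Clspn changed by -1.48 ± 0.32 and -0.87 ± 0.30 in WT, and by -1.31 ± 0.19 and -1.11 ± 0.19 in LynKO.

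Rrm2 changed by -0.87 ± 0.45 with LPS in WT, where the groups overlapped and the edgeR adjusted p was 0.105, and by -0.85 ± 0.14 in LynKO, without overlap (4.86e-05). It was lower with LPS in each of the 4 WT mice, and with the mouse number as a block its WT change passed (-0.96 ± 0.30, edgeR adjusted p = 0.00961), as did those of Rrm1 in WT (-0.29 ± 0.11) and of Rrm2 in LynAKO (-0.62 ± 0.19). Its spread in WT, with mouse 2 above the others, was wider than in LynKO, and the difference of these responses was 0.02 ± 0.44. Uhrf1 changed by -0.15 ± 0.38 and -0.25 ± 0.20 with LPS in WT and LynKO, and Ccne2 by -0.15 ± 0.40 and -0.36 ± 0.26. Slbp fell with LPS by 0.25 in WT and by 0.36 in LynKO on the log2 scale, and with R848 stood at 0.07 ± 0.10 and 0.00 ± 0.08.

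A few genes moved against the others. Pcna rose with LPS in WT by 0.41 ± 0.11 (edgeR adjusted p = 0.00274), with every LPS library (204 to 241 CPM) above every untreated one (144 to 186). It rose in LynBKO by 0.51 ± 0.07, from 146, 179, 166 and 182 to 252, 242, 244 and 219, and in LynAKO it went from 264, 179, 169 and 192 to 290, 228, 245 and 238, higher in each of 4 mice. That change, 0.32 ± 0.14, had an edgeR adjusted p of 0.0555, and 7.84e-05 with the mouse number as a block. By DESeq2 it was 0.0381, and over the other alternatives it ran from 0.00188 to 0.213. In LynKO the change of Pcna was 0.15 ± 0.13 (edgeR adjusted p = 0.352), with LPS above NT in each of 4 mice, and it passed with the block alone (0.16 ± 0.07, edgeR adjusted p = 0.0417). Tyms rose with LPS in LynBKO by 0.54 ± 0.21, from 2.60, 2.46, 2.22 and 2.66 CPM to 3.18, 3.59, 3.30 and 4.34, without overlap. This rise of Tyms had an edgeR adjusted p of 0.03. It did not pass without the LynBKO libraries numbered 2, 3 or 4 (edgeR adjusted p = 0.102, 0.0974 and 0.0842). Nor did it pass with no filter on low counts (0.0574) or with all 48 libraries in 1 model (0.0504). Pcna passed in LynBKO under every setting. In WT Tyms was 2.56, 2.60, 1.83 and 3.00 without ligand, 1.72, 2.48, 3.51 and 2.78 with LPS, and 2.27, 2.52, 2.69 and 2.89 with R848, and in LynKO 4.66, 3.49, 5.56 and 5.80, then 6.03, 3.13, 4.49 and 5.36, then 5.10, 3.38, 4.58 and 6.82. These groups overlapped across treatments, and the WT changes were 0.09 ± 0.24 and 0.08 ± 0.24. Whether the LPS changes of Pcna or Tyms differ between WT and LynBKO was not tested.

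The ligands were also set against each other. In WT 6 members were lower with LPS than with R848 and 1 higher, against 10% and 10.9% of tested genes. The 6 were E2f2, Orc6, Rpa2, Tk1, Slbp and Dnmt1, and the 1 was Pcna. In LynKO 5 were lower and 1 higher, against 6.13% and 9.73%. The 5 were E2f2, Rpa2, Tk1, Chaf1a and Slbp, and the 1 was Ccne1, which stood at 6.33, 2.67, 2.97 and 4.07 CPM with LPS and at 2.26, 2.15, 1.73 and 2.56 with R848 (1.84-fold, edgeR adjusted p = 0.0277). The WT counts fell to 2, 3 and 4 in all without mouse 1, 2 or 4, and the LynKO count to 3 without mouse 1. With the block Pole and Lig1 were also lower with LPS in WT (-1.17 ± 0.36 and -0.34 ± 0.12), and Pcna was also higher in LynKO (0.25 ± 0.07).

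**Figure D3:**
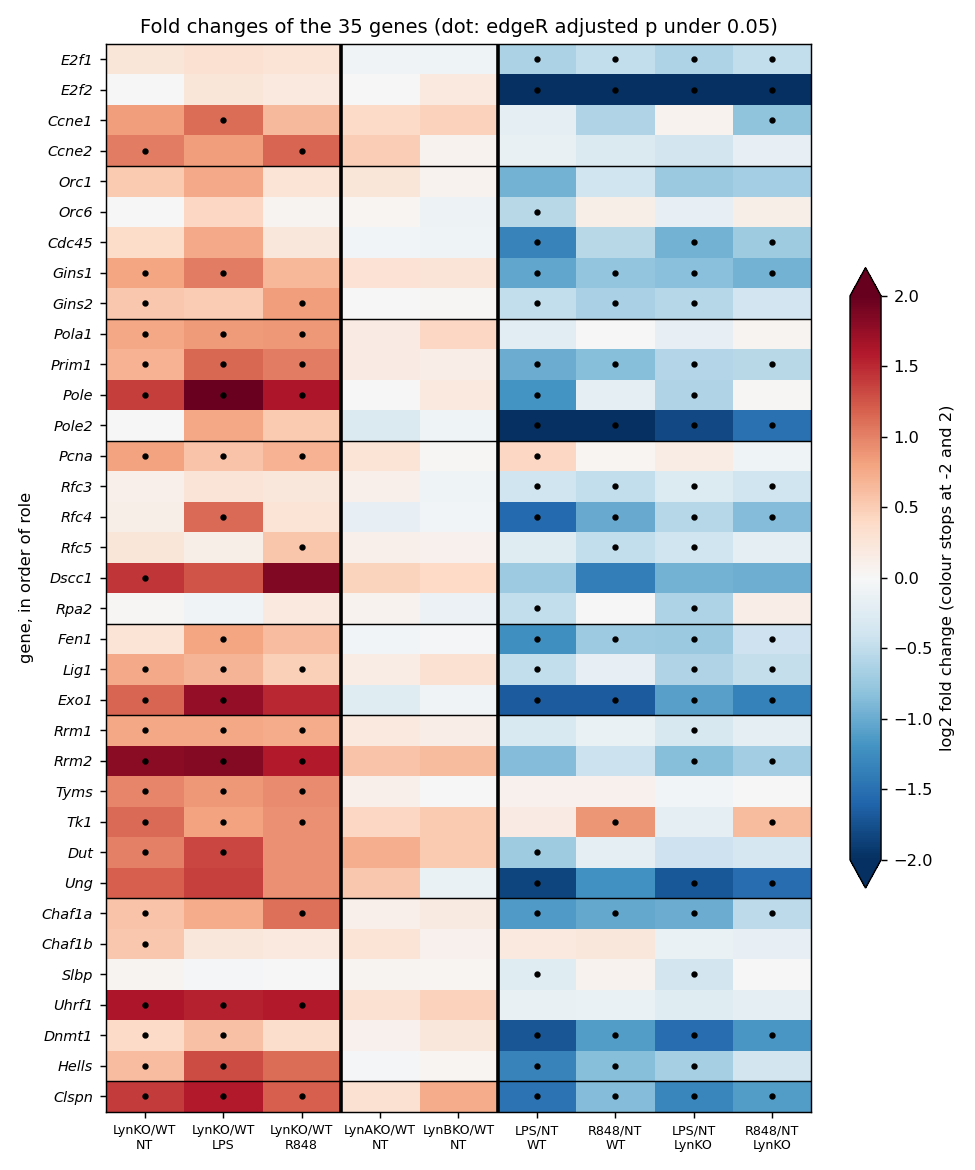
Log2 fold changes (colour, which stops at -2 and 2) of the 35 genes (rows, in order of role) in 9 comparisons (columns). A dot marks an edgeR adjusted p under 0.05. The LynKO against WT columns are red throughout most rows, with 21, 19 and 15 dots, the single knockouts hold none, and the ligand columns are mostly blue.

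Whether the LynKO excess changes with ligand was tested directly, as the difference between the ligand response of LynKO and that of WT over all 48 libraries. No member passed for LPS by edgeR, with 1 at an unadjusted p under 0.05 and 0 by DESeq2, where 0.1% of tested genes passed. None passed for R848 either, with 0 at an unadjusted p under 0.05 and 0 by DESeq2 (8 of 35 had no adjusted p there). Of tested genes 0.193% passed by edgeR for R848. Without the untreated libraries LynKO 4 and LynBKO 4, no member passed for either ligand. The median difference was 0.16 for LPS, from -0.33 to 1.00, and 0.05 for R848, from -0.33 to 0.54, against 0.01 and 0.02 over all tested genes. A p above the threshold does not show that the responses were equal. As examples, the SE of these differences (LPS and R848) was 0.44 and 0.46 for Rrm2 and 0.43 and 0.43 for Uhrf1.

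Rfc4, whose counts are uncertain because another gene overlaps an exon of it, had the widest of these differences. It was 7.21, 4.38, 3.21 and 3.47 CPM in untreated WT and 5.28, 4.58, 4.34 and 5.31 in LynKO, which overlapped, and 0.782, 1.45, 1.86 and 2.00 with LPS in WT against 2.51, 3.65, 4.00 and 3.03 in LynKO, which did not. LPS changed it by -1.56 ± 0.30 in WT and by -0.57 ± 0.18 in LynKO, a difference of 1.00 ± 0.38 with an edgeR adjusted p of 0.443. Pole2 (0.76 ± 0.41), Hells (0.70 ± 0.39) and Fen1 (0.52 ± 0.28) also had a smaller fall in LynKO, and none passed. Pcna (-0.24 ± 0.18) and Tk1 (-0.33 ± 0.21) had values on the other side of 0. For R848 the widest were Chaf1a and Hells (0.54 ± 0.27 and 0.53 ± 0.38).

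**Figure D4:**
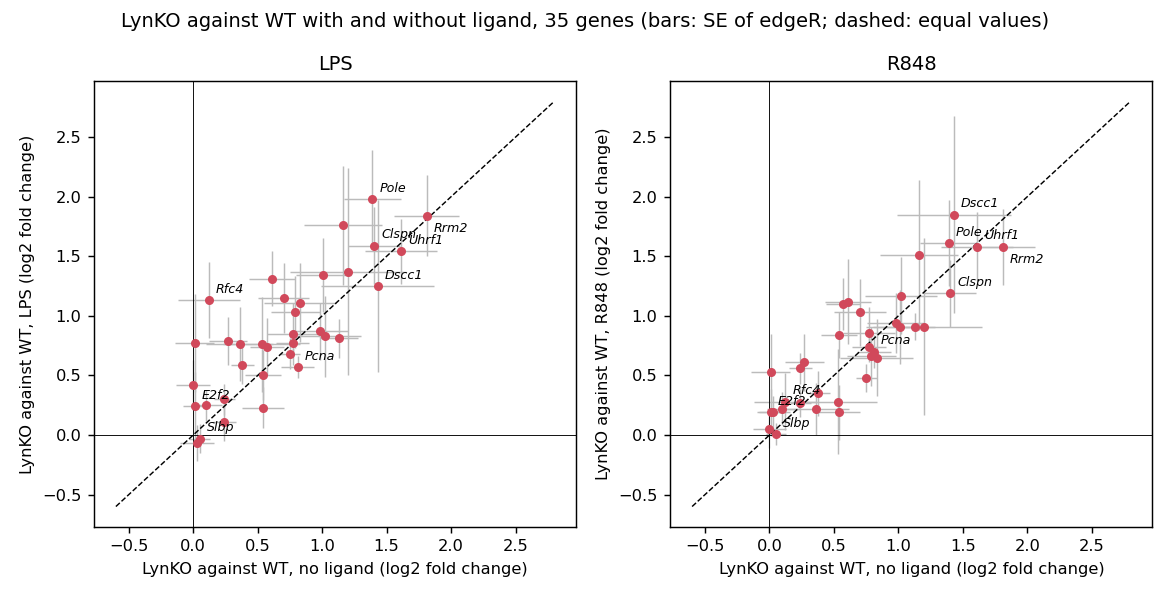
LynKO against WT log2 fold change of each of the 35 genes without ligand (horizontal axis) and with LPS or R848 (vertical axis). Bars are the SE derived from edgeR's F value. The dashed line marks equal values, and a point above it had a larger LynKO difference with ligand, as Rfc4 did with LPS (0.12 against 1.13).

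Other genes of the pathway, from lists written with earlier results of these data known, moved in the same comparisons. The shares of all tested genes that were higher in LynKO, to read these counts against, are 5.43% without ligand, 4.43% with LPS and 3.19% with R848. Without ligand, 10 of 16 MCM and licensing genes were higher in LynKO than in WT, with Cdc7, the kinase that fires origins (1.49 ± 0.35), and Mcm5, of the helicase ring (1.23 ± 0.18), widest. Of 29 other replisome subunits 9 were higher, led by Pclaf, a PCNA partner (1.76 ± 0.30), and Ticrr (1.59 ± 0.46), and Pold4, a small subunit of polymerase delta, was lower (-0.25 ± 0.08). Of 17 other nucleotide enzymes none passed by edgeR or DESeq2, with 4 at an unadjusted p under 0.05. Of 29 E2F, RB and CDK regulators 10 rose, led by E2f7, a repressing E2F (2.18 ± 0.38), and Ccna2, cyclin A2 (1.45 ± 0.23).

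Among 23 tested genes of the S-phase checkpoint and repair 11 rose, led by Rad51ap1 (1.57 ± 0.29) and Fancd2 (1.30 ± 0.33). Of 15 other chromatin genes 4 rose, and of 20 mitotic genes 19, led by Cenpf (1.44 ± 0.28) and Anln (1.43 ± 0.17). With LPS the higher counts were 7, 5, 4, 7, 6, 3 and 11 in the order given, with 1 regulator (Cdkn1b, a CDK inhibitor) and 2 chromatin genes (Hmgb2 and H2afz) lower. With R848 they were 6, 6, 1, 6, 3, 3 and 14, with 1 regulator (Cdkn1a, a CDK inhibitor) and 1 chromatin gene (Hmgb2) lower, both named after their values were seen. The 4 nucleotide enzymes with LPS were led by Dctd, a deaminase of dCMP (1.84 ± 0.44), and Mthfd1 (0.57 ± 0.17), and the 1 with R848 was Dctd. The medians of the 7 lists without ligand were 0.49, 0.20, 0.12, 0.19, 0.57, 0.12 and 1.05, beside 0.70 for the 35 genes. Without LynKO 4 and LynBKO 4 the counts without ligand were 7, 6, 0, 8, 4, 4 and 19. With the block, 7 other chromatin genes passed with LPS and 7 checkpoint and repair genes with R848.

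LPS in WT lowered 30% of all tested genes and raised 31.5%. It lowered 10 of 16 MCM and licensing genes and raised 1, lowered 16 of 29 replisome subunits and raised 3, and lowered 10 of 17 nucleotide enzymes and raised 3. Cdt1, which loads the MCM ring, fell by 2.86 on the log2 scale, and Dna2, a nuclease and helicase, fell by 2.97. Of E2F, RB and CDK regulators 10 fell and 9 rose, with Ccnd2, cyclin D2, up by 5.68 ± 0.22 and Cdk6 by 3.47 ± 0.12. Checkpoint and repair genes fell for 9 and rose for 1, other chromatin genes fell for 6 and rose for 5, and mitotic genes fell for 4 and rose for 3, among them Mki67 (3.53 ± 0.18). The shares of the regulators and other chromatin genes that moved either way lay near those of all tested genes, and those of the mitotic genes lay below them.

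A few markers of cell type differed between LynKO and WT too, and most did not pass. The summed level of 12 macrophage markers was 25183 to 27861 CPM in untreated LynKO libraries and 38198 to 46575 in WT. Over the ligand groups it was 25192 to 29929 against 37277 to 44938. Without ligand 1 marker was higher and 3 lower (1 and 2 without LynKO 4 and LynBKO 4), against 5.43% and 4.47% of tested genes. The other macrophage markers did not pass, and such a sum rests mostly on the most abundant ones. Lyz2 was the furthest lower (-0.78 ± 0.08). The summed level of 12 neutrophil and granulocyte progenitor markers was 12.5 to 19.3 CPM in untreated LynKO and 24.9 to 51.6 in WT, with Ctsg at 0 in the former and Ly6g at 0 in the latter. Of 6 tested, Mmp8 alone passed (-1.56 ± 0.21). The 4 stem and early progenitor markers summed to 13.1 to 20.9 CPM and 11 to 24.2, and none passed. The 5 B cell markers summed to 2.95 to 5.02 and 1.77 to 3.12, and the 5 T and NK cell markers to at most 0.153. The 4 erythroid markers summed to 0.0488 to 0.338 and 0.0764 to 0.326 CPM, the 4 mast cell and basophil markers to at most 0.142 and 0.122, the 4 dendritic cell markers to at most 1.4 and 0.852, and the 5 stromal markers to 0.0944 to 0.821 and 0.11 to 4.18. None of the 3 dendritic and 2 stromal markers tested passed by edgeR or DESeq2, with 1 and 0 at an unadjusted p under 0.05. The part of these markers in the differences of the 35 genes was not tested.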

How the data were processed

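Counts of 48 polyA libraries were analysed. The submitters' processing notes name build GRCm38 and the tools STAR 2.5.2b, Trimmomatic 0.36, Subread 1.5.2 with featureCounts, and DESeq2. For the annotation release and the strand setting, nothing is given in the sources used here, and the 14 members with an exon that another gene overlaps are uncertain: Ccne2, Cdc45, Chaf1a, Fen1, Gins2, Lig1, Orc1, Orc6, Pole, Pole2, Rfc4, Rfc5, Slbp and Tk1. The authors deposited raw counts per Ensembl gene, which were tested, and variance-stabilised values on a log2 scale, which served only as a check: there 35, 33 and 34 members were higher in LynKO than in WT (NT, LPS and R848). No column of values was left unmapped (0).

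With edgeR 4.0.16 (R 4.3.3), filterByExpr over all 12 groups set a minimum count of 10 and a minimum total of 15, TMM gave the scaling, and quasi-likelihood F tests were run, with Benjamini-Hochberg adjustment over 13986 genes in each of 27 comparisons. Genotypes were compared within a treatment (16 libraries), ligands within a genotype (12 libraries), and differences of response over all 48. Log2 CPM used a prior count of 2. Each SE was derived from edgeR's test, as the absolute log2 fold change divided by the square root of its F value. Members and lists were chosen with earlier results of these data known. By rule all 35 members may be named, values in each library are given for 12 of them and for members that go against the rest, and other lists give at most 2 genes per direction (1 gene of these lists is not reported here); Pole, Clspn and Rfc4 were given in each library after their values were seen. The model was also run on simulated data, and no result given here rests on that run. Alternatives were DESeq2 1.42.0, RLE size factors, the replicate block, no filter on low counts, a sex covariate, all 48 libraries in 1 model, the 2 doubtful untreated libraries left out, and each mouse left out.

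The replicate number was taken from the labels. Deviations of same-numbered libraries from their group means correlated above 0.1 in every pair within WT, LynAKO and LynKO, and not in LynBKO with its untreated libraries (-0.21 to 0.186 for NT with R848 or LPS). Between LynKO and WT with LPS or R848, and between LynKO and the single knockouts with R848, every same-numbered pair was above 0.1 (0.105 to 0.403 for the latter). For these and the ligand comparisons of WT, LynAKO and LynKO, calls that the block changes are given with it, beside the result or in the closing section.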

Additional observations from a re-analysis of the deposited data

Results flagged for a closer look

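Among 144 groups of 4 libraries (12 members with values in every library, 12 groups), 6 held a library far from the other 3, where chance gives about 1 in 20. Rrm2 in LynAKO with LPS was 6.77 CPM in mouse 1 against 3.56 to 3.82. Ccne1 in untreated LynAKO was 4.55 in mouse 1 against 2.07 to 2.47, and Uhrf1 in LynAKO with R848 was 5.19 in mouse 1 against 3.8 to 3.98. In WT with LPS, mouse 2 stood above the others for Ccne1 (2.89 against 1.43 to 1.5) and for Uhrf1 (4.81 against 2.00 to 2.42). Dnmt1 in WT with LPS was 21.9 in mouse 3 against 26.3 in the others.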

How the results depend on the processing

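No fold change of a member that passed changed sign. Of 945 pairs of a member and a comparison, 201 that did not pass had the other sign under at least 1 setting. Shares of all tested genes were counted only in the original models, so counts under other settings have no background beside them. With RLE size factors or sex as a covariate every count of members stayed within 1.5 times. With DESeq2 4 counts moved: LynBKO against WT without ligand (2), LynKO against LynBKO with LPS (5) and with R848 (13), and LynKO against LynAKO with R848 (8). With no filter on low counts LynAKO against WT had 1 without ligand and 1 with LPS, LynBKO against WT 3 without ligand, LynKO against LynAKO 13 with LPS and 9 with R848, and LynKO against LynBKO 9 and 16. With all 48 libraries in 1 model the R848 counts against LynAKO and LynBKO were 8 and 14. In the original models with the replicate block they were 6 and 14, and the block moved no other count of members past 1.5 times. Without ligand same-numbered WT and LynKO libraries correlated at 0.05 to 0.191, and with the block 18 members passed there, without Dscc1, Chaf1b and Hells. Other calls that the block added were falls of Gins2, Pole and Rfc5 with LPS and of Prim1 and Dut with R848 in LynAKO, and of Dut with LPS and Gins2 with R848 in LynKO. Without the untreated libraries LynKO 4 and LynBKO 4, LynKO against LynAKO and LynBKO gave 7 and 2. The cause was not tested.

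With each mouse left out in turn, LynKO against WT ranged from 14 to 23 without ligand, 11 to 20 with LPS and 9 to 17 with R848. LynKO against LynAKO ranged from 7 to 15, 1 to 8 and 1 to 6, and LynKO against LynBKO from 5 to 12, 0 to 4 and 1 to 10. LynAKO against WT stayed at 0, LynBKO against WT at 0 to 1 without ligand and 0 with either. LPS gave 18 to 21 in WT, 17 to 20 in LynAKO, 19 to 21 in LynBKO and 16 to 22 in LynKO, and R848 12 to 17, 11 to 17 (11 without LynAKO mouse 2 or 3), 14 to 17 and 15 to 18. LPS against R848 gave 2 to 6 in WT and 3 to 8 in LynKO, and the differences of response 0 each time. Of the 21, 19 and 15 genes higher in LynKO, 12, 10 and 9 passed under every setting. A WT or LynKO library with as few as 0 counts limits Dscc1 and Ung.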
